A study of Mus musculus with 6 samples.

Results

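The complement system was examined through 32 of its genes in RNA sequencing data of mouse peritoneal endothelial cells (ECs). The genes were chosen by name, as components, receptors and regulators of complement, and each was found as a single row of the 22183 genes listed. They comprised 7 genes of the classical pathway, 3 of the lectin pathway, 3 of the alternative pathway, C3 itself, 4 genes of the terminal pathway, 6 receptors, 4 soluble inhibitors and 4 membrane inhibitors. The question was how these transcripts differed in the peritoneal EC fraction after prolonged exposure to peritoneal dialysis (PD) fluid. Wild-type mice received injections of saline (saline mice) or of PD fluid (PD mice) into the peritoneal cavity for 6 weeks, with 3 mice per group and a library per mouse. According to the methods, both groups were young adult male C57BL/6J mice injected daily, and the PD fluid was a high-glucose commercial dialysate. In the methods, cells were released from mesentery with collagenase and CD31+ CD45- cells were taken by flow cytometry, whereas the sample labels give magnetic sorting on CD31 alone. Each library was therefore a bulk measurement of a sorted fraction, in which a lower number of cells of a type and less RNA per cell cannot be told apart.

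Complement is a cascade of blood and tissue proteins that tags microbes and damaged cells. The classical pathway starts when C1q binds antibody or altered surfaces, the lectin pathway when collectins or ficolins bind sugars, and the alternative pathway by spontaneous turnover of C3 amplified by factor B. All of them converge on cleavage of C3, after which C5 is cleaved, the anaphylatoxins C3a and C5a signal to leukocytes and ECs, and C6 to C9 form a membrane pore. The liver supplies most circulating components, macrophages are the main source of C1q, and host cells protect themselves with soluble and membrane-bound inhibitors. In the peritoneum, mesothelial cells make some of the components and carry such inhibitors on their surface.

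The gene counts of a mouse summed to between 21973426 and 26374292. Levels are given as CPM, counts relative to the library size after scaling by the trimmed mean of M-values (TMM), and levels of different genes are compared only as the deposited FPKM, which divides by transcript length. The sort marker Pecam1 (CD31) was present at 458 to 491 CPM in the saline mice and 505 to 519 CPM in PD mice. Ptprc (CD45), a leukocyte gene that the described sort would have removed, averaged 2373 ± 127 CPM without PD fluid and 1473 ± 63.6 CPM with it (SD, n = 3 mice each). The libraries labelled endothelial thus held abundant transcripts of leukocytes, and marker levels of other cell types are set beside the complement genes below.

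Complement transcripts as a group were far more abundant in PD mice. The 32 genes held 0.216 to 0.224% of all counts in saline mice and 0.581 to 0.593% in PD mice. Of the 29 genes with enough counts to be tested, 22 were higher in PD mice and 3 were lower, when tested with edgeR (quasi-likelihood F test, Benjamini-Hochberg adjustment over 14005 genes, threshold 0.05). Across all tested genes, 31.1% were higher and 27.8% lower by the same test. A change of at least 1 log2 unit was reached by 18 of the higher genes, against 15.4% of all tested genes, and by 2 of the lower ones, Cd55 and Cd46, against 1.8%. Values of PD and saline mice did not overlap for 25 of the 29 genes, compared with 65.6% of all tested genes. The median log2 fold change was 1.40 over the 29 genes and 0.02 over all tested genes. When the libraries were scaled to 12 endothelial marker genes instead of TMM, the median of all genes moved to -0.69, with 1670 genes higher and 8997 lower in place of 4359 and 3887. On that scale 19 of the complement genes were higher and 6 were lower. Pecam1 made up 38.7% of the endothelial sum in saline mice and 26% in PD mice, and its own log2 fold change was 0.13. Scaling to the other 11 markers, which was added after seeing the data, moved the median of all genes to -0.96 and left 1149 genes higher and 10133 lower. Then 15 complement genes were higher and 6 lower, and Colec11 (0.49), C6 (0.15), Clu (0.11) and Cd93 (-0.03) no longer passed as higher.

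**Figure D1:**
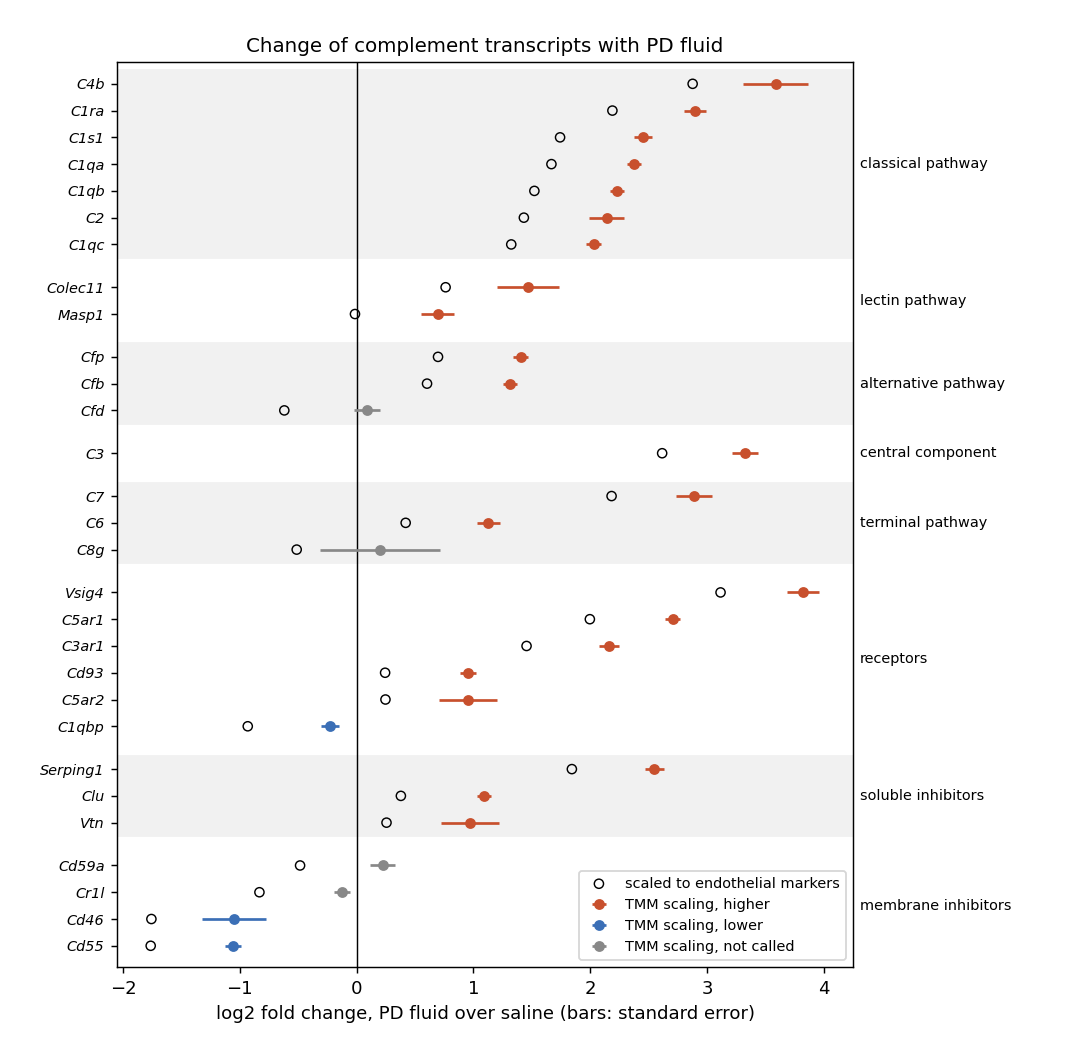
Log2 fold change of each tested complement gene in PD mice against saline mice (x axis), grouped by role (right). Filled points with bars give the TMM-scaled estimate and its standard error, coloured by call, and open circles give the estimate after scaling to endothelial markers. All 7 classical pathway genes lie above 2 log2 units, while the 4 membrane inhibitors lie between -1.06 and 0.22.

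To show the DNA next to genes that changed at different steps of the cascade, the 250 bases before the transcription start are given for 6 of them chosen after their values were seen. They are not those that changed most, since C1ra and C5ar1 rose more than C3ar1. The 5 that rose are the C1q chain C1qb, the protease C1s1, C3, the C3a receptor C3ar1 and the C3b receptor Vsig4. The sixth, Cd55, fell. Sequences are from RefSeq on GRCm38.p6, written 5′ to 3′ on the minus strand, on which all 6 genes lie. Capitals mark matches, on either strand, to 5 short motifs described after the sequences.
C1qb (chr4:136886201-136886450): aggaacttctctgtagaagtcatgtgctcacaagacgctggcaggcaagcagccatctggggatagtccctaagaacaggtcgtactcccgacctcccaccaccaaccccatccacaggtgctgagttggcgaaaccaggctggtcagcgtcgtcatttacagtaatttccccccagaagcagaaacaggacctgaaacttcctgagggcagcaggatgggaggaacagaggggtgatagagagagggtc
C1s1 (chr6:124542360-124542609): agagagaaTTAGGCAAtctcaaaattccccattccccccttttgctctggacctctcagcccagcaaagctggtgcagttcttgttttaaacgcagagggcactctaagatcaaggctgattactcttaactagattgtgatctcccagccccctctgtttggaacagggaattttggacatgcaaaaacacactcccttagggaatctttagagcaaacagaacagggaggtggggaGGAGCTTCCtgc
C3 (chr17:57228137-57228386): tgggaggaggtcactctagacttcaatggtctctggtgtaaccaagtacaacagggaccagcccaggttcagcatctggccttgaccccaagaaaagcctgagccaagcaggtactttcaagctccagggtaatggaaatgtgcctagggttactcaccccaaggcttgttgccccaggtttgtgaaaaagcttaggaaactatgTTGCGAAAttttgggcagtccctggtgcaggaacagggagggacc
C3ar1 (chr6:122856158-122856407): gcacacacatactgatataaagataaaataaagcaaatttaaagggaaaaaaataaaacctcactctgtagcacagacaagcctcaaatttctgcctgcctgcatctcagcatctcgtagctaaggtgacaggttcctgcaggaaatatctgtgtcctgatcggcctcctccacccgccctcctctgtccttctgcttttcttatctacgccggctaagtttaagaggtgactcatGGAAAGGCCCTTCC
Vsig4 (chrX:96293439-96293688): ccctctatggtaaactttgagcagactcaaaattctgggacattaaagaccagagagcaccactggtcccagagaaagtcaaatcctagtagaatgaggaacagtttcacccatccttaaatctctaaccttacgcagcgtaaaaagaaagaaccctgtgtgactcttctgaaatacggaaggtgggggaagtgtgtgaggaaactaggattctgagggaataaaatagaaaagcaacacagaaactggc
Cd55 (chr1:130462745-130462994): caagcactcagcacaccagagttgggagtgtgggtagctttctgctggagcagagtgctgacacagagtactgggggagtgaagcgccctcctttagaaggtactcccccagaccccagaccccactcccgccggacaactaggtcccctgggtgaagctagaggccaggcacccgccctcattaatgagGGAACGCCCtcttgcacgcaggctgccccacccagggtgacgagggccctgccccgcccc

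The motifs searched were GAAANNGAA (the core of the interferon-stimulated response element), TTCNNNGAA (STAT), GGNNNTTCC (NF-kB), GAGGAAGT (PU.1) and TTGCNNAA (C/EBP). RefSeq windows were found for 23 of the 32 genes, and the 9 others, C1qa, C2, C4b, Cfb, Cfi, Cd93, Clu, Masp1 and Serping1, were not searched. The NF-kB motif was present before C1s1, C3ar1 and Cd55, that is in 3 of 23 windows, and in 15.6% of 27025 windows of all genes. In C3ar1 it matched at 14 and at 9 bases before the start, and these matches overlap. The last 4 bases of that window lie inside the GENCODE span of C3ar1, which reaches 122856161. The match at 9 bases includes them and the match at 14 bases does not. The C/EBP motif was found before C1s1, C3 and C5ar2, and in 9.55% of all windows. Its match before C3 begins 45 bases upstream of the start. The PU.1 motif matched only C1qc, 195 bases before its RefSeq start on the opposite strand, and 2.44% of all windows. That window, 136892915 to 136893164, overlaps the GENCODE span of C1qc, which reaches 136893065, and the match lies outside the span. The interferon-stimulated response element core was found before C5ar1, Colec11 and Cd59a (7.16% of all windows), and the STAT motif before C7, Masp2 and Colec11 (7.18%). The C5ar1 window, 16259339 to 16259588, lies largely inside the GENCODE span of that gene, which reaches 16259540, and so does its match. The Colec11 window overlaps its gene in part, but its matches do not. No motif of the 5 matched the C1qb or Vsig4 window. These matches describe letters within 250 bases only, and binding was not measured.

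All 7 classical pathway genes rose in PD mice, with a median log2 fold change of 2.38. The 3 chains of C1q, the recognition molecule of the pathway, are encoded side by side on the minus strand of chromosome 4 (GRCm38): C1qb at 136880129 to 136886187, C1qc at 136889804 to 136893065 and C1qa at 136895917 to 136898803. C1qa was at 99.9, 102 and 95.5 CPM in the saline mice and at 514, 516 and 515 CPM in the PD mice. C1qb was at 236, 238 and 225 CPM and at 1039, 1099 and 1136 CPM, respectively. C1qc was at 267, 265 and 266 CPM and at 1027, 1087 and 1148 CPM. In each chain the groups were separated by a wide gap and the saline mice were nearly alike. The rise was 5.19-fold for C1qa (log2 fold change 2.38, standard error 0.06, adjusted p = 1.31e-10 in edgeR's test). C1qb rose 4.69-fold (2.23, standard error 0.06, adjusted p = 3.89e-10 in edgeR's test) and C1qc 4.09-fold (2.03, standard error 0.06, adjusted p = 9.07e-10 in edgeR's test). By FPKM the chains were unequal: C1qa made up 17.7 to 18.3% of the FPKM of the 3 chains in saline mice and 19.9 to 21.5% in PD mice, while C1qc made up 41.0 to 42.6% and 37.1 to 38.3%, respectively.

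C1r and C1s are the proteases that C1q activates, and their genes C1ra and C1s1 lie 6902 bases apart on opposite strands of chromosome 6. C1ra stood at 6.83, 7.38 and 7.29 CPM in the saline mice and at 52.0, 55.0 and 53.2 CPM in the PD mice, a 7.45-fold rise (log2 fold change 2.90, standard error 0.09, adjusted p = 1.13e-09 in edgeR's test). C1s1 went from 14.9, 15.7 and 15.2 CPM to 81.9, 84.4 and 84.2 CPM (2.45, standard error 0.08, adjusted p = 9.37e-10 in edgeR's test). The groups did not overlap for either gene. In FPKM both proteases stayed far below the C1q chains, with C1ra at 2.40 in saline mice and 17.97 in PD mice and C1s1 at 5.22 and 30.5. Reads of the close paralogs C1rb and C1s2 could be confused with theirs, and these held at most 0.117 and 0 CPM in the saline mice and at most 0.126 and 0.453 CPM in PD mice.

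C4 and C2, which C1s cleaves, together form the C3 convertase of this pathway. C4b (chromosome 17, 34728380 to 34743882) was at 32.5, 12.9 and 34.2 CPM in the saline mice and at 377, 311 and 274 CPM in PD mice. Among the classical genes it had the largest rise, 12.1-fold (log2 fold change 3.59), and also the widest spread (standard error 0.28, adjusted p = 1.43e-06 in edgeR's test). The second saline mouse was lower than the other saline mice, and the log2 fold change ran from 3.27 to 3.80 as each mouse was left out in turn. Its near-identical copy C4a was looked for but was not among the genes listed, so reads that fit both cannot be assigned with certainty. C2 had 2.97, 3.55 and 3.93 CPM in the saline mice and 15.5, 14.5 and 16.1 CPM in PD mice (log2 fold change 2.14, standard error 0.15, adjusted p = 6.01e-07 in edgeR's test). It ends 86 bases from Cfb, and both overlap the read-through gene Gm20547, which held at most 0.147 CPM in any mouse.

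**Figure D2:**
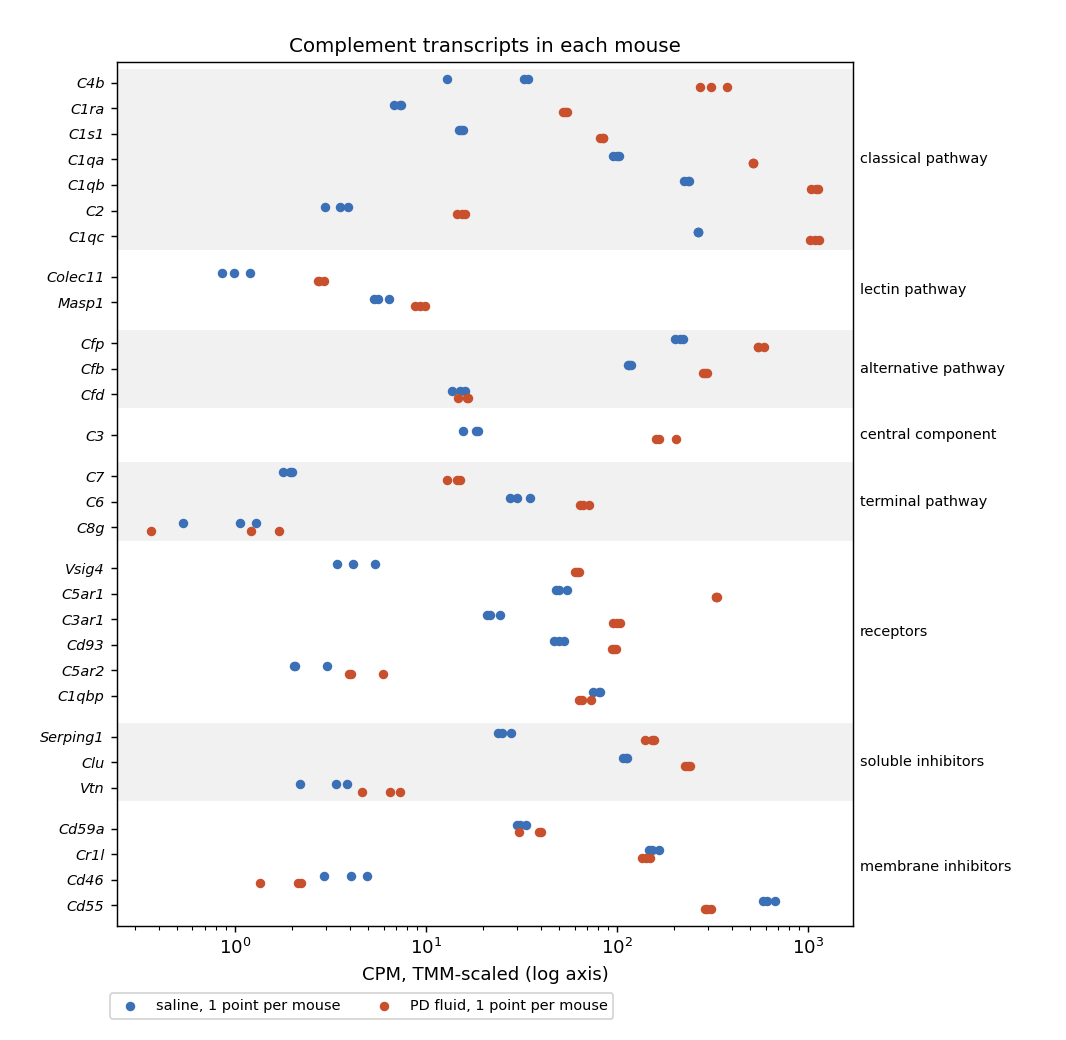
TMM-scaled CPM of each tested complement gene in every mouse (x axis, log scale), with a point per mouse and the genes grouped by role (right). The 3 PD mice sit apart from the 3 saline mice for 25 of the 29 genes, against 65.6% of all tested genes. The points overlap for C8g, Cfd, Cd59a and Cr1l.

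The lectin pathway genes of the list were at low levels, and Fcna, a more abundant ficolin gene outside the list, is given below. Colec11, a collectin that binds sugars on microbes, was at 0.859, 1.20 and 0.994 CPM in the saline mice and at 2.72, 2.77 and 2.95 CPM in PD mice. It rose 2.76-fold without overlap of the groups (log2 fold change 1.47, standard error 0.26, adjusted p = 6.96e-04 in edgeR's test). Masp1, a protease that starts this pathway, was at 5.35 to 6.38 CPM and at 8.76 to 9.92 CPM (log2 fold change 0.69, adjusted p = 0.00188 in edgeR's test), but at -0.01 after scaling to endothelial markers. Masp1 overlaps Rtp4 on the other strand, which was at 88.0 to 94.7 CPM in the saline mice and 79.3 to 91.5 CPM in PD mice, and a library kit that does not mark strand cannot separate reads in shared exons. Masp2, the protease that cleaves C4 and C2 in this pathway, had 0 or 1 counts in the saline mice and 1 or 2 in the PD mice and was not tested.

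In the alternative pathway, factor B and properdin rose and factor D did not pass the test. Cfb encodes factor B, the catalytic part of the alternative C3 convertase. It was at 115, 115 and 119 CPM in the saline mice and at 289, 282 and 295 CPM in the PD mice (log2 fold change 1.31, standard error 0.06, adjusted p = 1.5e-08 in edgeR's test). Cfp encodes properdin, which stabilises that convertase and is made mainly by leukocytes. It was at 221, 201 and 214 CPM in the saline mice and at 546, 546 and 592 CPM in PD mice (1.40, standard error 0.06, adjusted p = 2.00e-08 in edgeR's test). For both genes every PD mouse exceeded every saline mouse. Cfd, encoding factor D (adipsin), the protease that cleaves factor B and is abundant in fat, ranged from 13.7 to 16.1 CPM in the saline mice and from 14.8 to 16.6 CPM in PD mice, with overlapping groups. With TMM its log2 fold change was 0.09, with a standard error of 0.11 (adjusted p = 0.517 in edgeR's test), and it was -0.62 (adjusted p = 3.22e-04 in edgeR's test) with endothelial marker scaling.

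C3, the component on which the pathways converge, rose 10.1-fold. It was at 18.3, 15.7 and 18.6 CPM in the saline mice and at 203, 166 and 159.5 CPM in PD mice. The groups were far apart, with the first PD mouse above the other PD mice (log2 fold change 3.33, standard error 0.11, adjusted p = 1.79e-09 in edgeR's test). By FPKM, C3 remained much lower than the C1q chains, at 3.80 in saline mice and 34.5 in PD mice against 213 and 1006 for C1qb.

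Transcripts of the terminal pathway, whose proteins assemble the membrane pore, were unevenly present. C7, which anchors the growing complex in the membrane, was at 1.80, 1.94 and 1.99 CPM in the saline mice and at 12.8, 14.6 and 15.0 CPM in PD mice, a 7.43-fold rise (log2 fold change 2.89, standard error 0.16, adjusted p = 7.54e-08 in edgeR's test). C6, its partner in that complex, was at 27.6, 35.0 and 29.98 CPM and at 64.0, 66.5 and 71.5 CPM (1.13, standard error 0.10, adjusted p = 3.42e-06 in edgeR's test). Neither gene showed overlap between the groups. Both lie on chromosome 15 on opposite strands, 173795 bases apart. C8g, one chain of C8, ranged from 0.538 to 1.29 CPM in the saline mice and from 0.362 to 1.69 CPM in PD mice, with overlapping groups, and did not pass the test (log2 fold change 0.20, standard error 0.51, adjusted p = 0.759 in edgeR's test). C8g also overlaps Fbxw5 on the other strand, which was at 74.2 to 99.5 CPM over all mice. Hc, which encodes C5, had 1 to 2 counts in saline mice and 1 to 5 counts in PD mice and was not tested.

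The receptors for complement fragments included the gene with the largest rise of the 29 tested. Vsig4 (chromosome X, 96247203 to 96293438) encodes the immunoglobulin-family complement receptor CRIg, by which tissue-resident macrophages take up C3b-coated particles. It was at 5.43, 4.15 and 3.44 CPM in the saline mice and at 60.0, 61.6 and 63.4 CPM in PD mice. This was a 14.2-fold rise with well separated groups (log2 fold change 3.82, standard error 0.14, adjusted p = 3.56e-09 in edgeR's test). Of the anaphylatoxin receptors, C5ar1, through which C5a activates phagocytes, was at 49.8, 54.6 and 48.1 CPM and at 330.2, 335 and 329 CPM. It rose 6.52-fold (2.71, standard error 0.07, adjusted p = 1.36e-10 in edgeR's test). C3ar1, the receptor for C3a, went from 21.6, 24.5 and 21.0 CPM to 95.4, 100.1 and 104 CPM (2.16, standard error 0.09, adjusted p = 5.85e-09 in edgeR's test). C5ar2, a second C5a receptor that does not couple to G proteins, was at 3.05, 2.03 and 2.07 CPM and at 4.05, 3.94 and 5.94 CPM. Its groups did not overlap (log2 fold change 0.95, standard error 0.25, adjusted p = 0.00713 in edgeR's test), but the value was 0.25 (adjusted p = 0.389 in edgeR's test) after scaling to endothelial markers.

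The other receptors changed less. Cd93, a transmembrane lectin of ECs and myeloid cells once taken for a C1q receptor, was at 47.1 to 53.0 CPM in the saline mice and 93.9 to 99.1 CPM in PD mice (log2 fold change 0.95, standard error 0.07, adjusted p = 1.18e-06 in edgeR's test). Relative to the endothelial markers its log2 fold change was 0.24 (adjusted p = 0.0140 in edgeR's test), and without Pecam1 among them it was -0.03 (adjusted p = 0.772 in edgeR's test). C1qbp, a mostly mitochondrial protein that binds the globular heads of C1q, was at 75.2 to 81.9 CPM in the saline mice and 63.6 to 73.4 CPM in PD mice. It fell by 0.23 on the log2 scale (standard error 0.08, adjusted p = 0.0265 in edgeR's test). That call did not hold without the first saline mouse (-0.21, adjusted p = 0.0905), without the first PD mouse (-0.18, adjusted p = 0.0872) or without the second PD mouse (-0.20, adjusted p = 0.109), all in edgeR's test.

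Soluble inhibitors rose. Serping1 (chromosome 2, 84765387 to 84775444) encodes C1 inhibitor, which inactivates C1r, C1s and the lectin pathway proteases. It was at 23.9, 28.0 and 25.0 CPM in the saline mice and at 140.2, 152 and 157 CPM in PD mice, a 5.85-fold rise without overlap (log2 fold change 2.55, standard error 0.09, adjusted p = 1.67e-09 in edgeR's test). Clu encodes clusterin, which keeps the terminal complex out of membranes. It was at 108, 112 and 112 CPM and at 242, 235 and 228 CPM (1.09, standard error 0.06, adjusted p = 7.93e-08 in edgeR's test), and again every PD mouse exceeded every saline mouse. Vtn, encoding vitronectin, another inhibitor of that complex, was at 2.19 to 3.87 CPM and at 4.62 to 7.28 CPM (log2 fold change 0.97, standard error 0.25, adjusted p = 0.00615 in edgeR's test). With endothelial marker scaling Vtn was at 0.26 (adjusted p = 0.349 in edgeR's test). Cfi, encoding the factor I protease that degrades C3b and C4b, had 0 counts in all 6 mice.

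None of the membrane inhibitors rose, and 2 of the 4 fell. Cd55 (chromosome 1, 130439027 to 130462744) encodes decay-accelerating factor, which breaks up C3 convertases on the cell surface. It was at 609, 669 and 579 CPM in the saline mice and at 288, 295 and 309.9 CPM in the PD mice. Saline mice were thus 2.08-fold higher and no PD mouse came near them (log2 fold change -1.06, standard error 0.07, adjusted p = 3.35e-07 in edgeR's test). Leaving out each mouse in turn kept the value between -1.11 and -0.997. The paralog Cd55b held at most 0.195 CPM in any mouse. Cd46, membrane cofactor protein, which in mice is mostly restricted to the testis, was at 2.93, 4.93 and 4.06 CPM in the saline mice and at 2.13, 2.22 and 1.36 CPM in PD mice. The groups did not overlap at this low level (-1.05, standard error 0.27, adjusted p = 0.00706 in edgeR's test).

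Cr1l and Cd59a did not pass the test with TMM scaling. Cr1l encodes Crry, the rodent regulator that combines both inhibitory activities against C3 convertases, and lies 5133 bases from Cd46. It ranged from 147 to 165 CPM in the saline mice and from 136 to 149 CPM in PD mice (log2 fold change -0.12, standard error 0.07, adjusted p = 0.136 in edgeR's test). Cd59a, which blocks the final step of pore formation, ranged from 30.1 to 33.4 CPM and from 30.8 to 40.2 CPM (0.22, standard error 0.11, adjusted p = 0.105 in edgeR's test). Without the first PD mouse, the lowest of its group, Cd59a was higher at 0.34 (adjusted p = 0.0137 in edgeR's test). After scaling to endothelial markers, both were lower in PD mice, Cr1l at -0.83 (adjusted p = 6.73e-07) and Cd59a at -0.48 (adjusted p = 0.00240), in edgeR's test.

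The different changes altered the make-up of complement transcripts. Summed over the members, FPKM was 1310 to 1368 in saline mice and 3847 to 3875 in PD mice. Classical pathway genes made up 40.4 ± 0.721% of this sum in saline mice and 65.4 ± 0.428% in PD mice (SD, n = 3 each). Nearly all of the classical part came from the C1q chains in both groups. The membrane inhibitors made up 29.7 ± 1.21% and 6.51 ± 0.0441%, respectively. As FPKM, which is relative to the library, the membrane inhibitors summed to 376 to 424 in saline mice and 249.5 to 254 in PD mice. Cd55 accounted for a mean of 274 and 134 of these sums, respectively. Receptors, at 8.30 and 8.21%, and soluble inhibitors, at 5.93 and 5.76%, kept nearly the same share. Within the receptors, however, C1qbp led in saline mice and C5ar1 in PD mice. Mean FPKM in saline and PD mice was 67.0 and 57.7 for C1qbp and 28.0 and 176.5 for C5ar1. In saline mice Cd55 had the highest FPKM of the 32 genes, above C1qc at 220.3 and C1qb at 213, whereas in PD mice C1qb, C1qc and C1qa led, with means of 1006, 906 and 497.

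**Figure D3:**
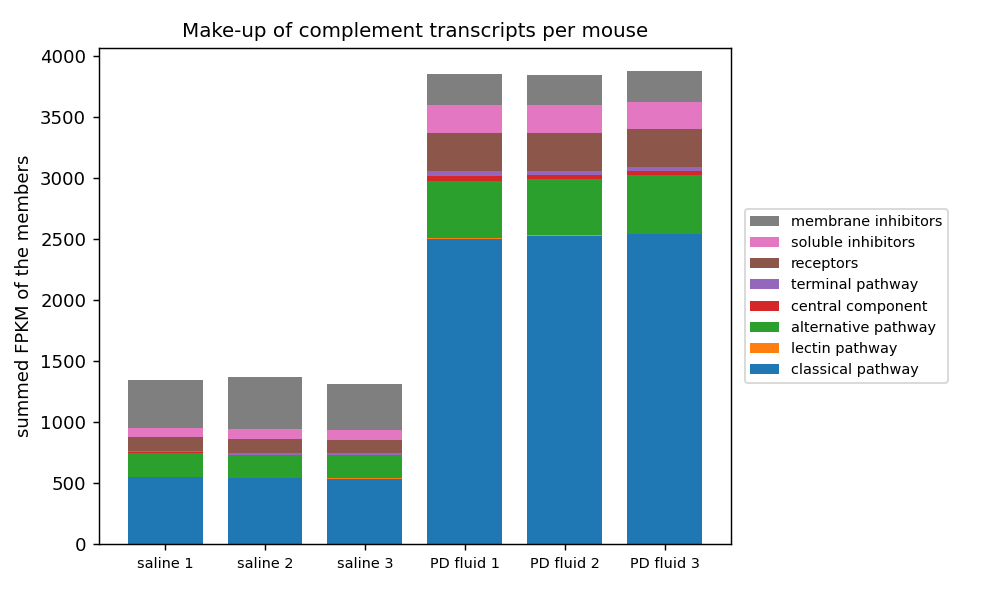
Summed FPKM of the complement genes in each mouse (y axis, linear from 0), stacked by role. The classical pathway block is 537 to 549 FPKM in saline mice and 2501 to 2540 in PD mice, while the membrane inhibitor block at the top is smaller in PD mice.

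Other genes of the pathway were examined from a separate list of 33, of which 32 were in the table and 12 had enough counts to be tested. In PD mice, 8 of the 12 were higher and 1 was lower in edgeR's test, against 31.1% and 27.8% of all tested genes, with a median log2 fold change of 1.13. Among the 8, Fcnb and Ptx3 had enough counts to be tested only through the PD mice, so their calls as higher were close to fixed. They are kept in these counts and in the median. The ficolin gene Fcna, whose protein starts the lectin pathway and which macrophages make, was at 171 to 187 CPM in the saline mice and at 455 to 539 CPM in the PD mice (log2 fold change 1.5, adjusted p = 3.88e-08 in edgeR's test). Fcnb, the ficolin of neutrophils and monocytes, had 0 reads in the saline mice and 0.589 to 0.839 CPM after PD fluid. Its PD mean was at least 5.43-fold higher than the level that 3 counts per library correspond to. Ptx3, a pentraxin that binds C1q, rose by 3.31 log2 units from at most 0.391 CPM (adjusted p = 2.18e-04), and C1rl, a C1r-like protease, by 1.38 (adjusted p = 9.55e-04), both in edgeR's test.

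The leukocyte receptors for C3 fragments split. Itgam, the alpha chain of complement receptor 3 on phagocytes, was at 14.1 to 21.3 CPM in the saline mice and 112 to 129 CPM in PD mice (log2 fold change 2.69, adjusted p = 3.68e-08 in edgeR's test). Cr2, complement receptor 2 of B cells, was at 333 to 347 CPM in the saline mice and 137 to 145.5 CPM in PD mice and fell by 1.27 on the log2 scale (adjusted p = 2.07e-08 in edgeR's test). Itgax, of complement receptor 4, and Calr, whose protein calreticulin binds C1q, were also higher, at 0.89 and 0.29. Itgb2, Susd4 and Cd59b did not pass the test. Of the 20 genes that were not tested, 6 had no read in any mouse, and these included Mbl1 and Mbl2, the mannose-binding lectins of the liver, and C8b.

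Marker genes of several cell types differed between the groups in the same libraries. The summed CPM of 10 macrophage markers was 2221 to 2356 in saline mice and 8323 to 8955 in PD mice, with all 10 higher. The 8 fibroblast markers summed to 95.0 to 103 CPM in the saline mice and 853 to 889 CPM in the PD mice, and the 8 mesothelial markers to 15.1 to 19.1 CPM and 161 to 188 CPM, with all of them higher. The 12 endothelial markers summed to 1203 to 1215 CPM and to 1943 to 2032 CPM, 11 of them higher and Pecam1 not called. The 6 B cell markers went in the opposite direction, with sums of 5827 to 6104 CPM in the saline mice and 2767 to 2803 CPM in the PD mice, all 6 lower, and 3 of 5 T cell markers were lower too. Neutrophil markers, 5 of 5 tested higher, summed to 14.6 to 17.1 CPM and to 211.5 to 227 CPM, and pancreatic acinar markers, 7 of 7 higher, to 2.15 to 5.30 CPM and to 6017 to 6704 CPM. Hepatocyte markers, for the cells that make most circulating complement, summed to at most 3.49 CPM in any mouse, and Apoa2, Fga, Fgb and Serpina3k were at 3 counts or fewer in every mouse. Lymphatic endothelial (6 of 6), mast cell (5 of 5), pericyte and smooth muscle (6 of 6) and dendritic cell markers (3 of 5) were higher as well. The part of these cell types in the complement changes was not tested.

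**Figure D4:**
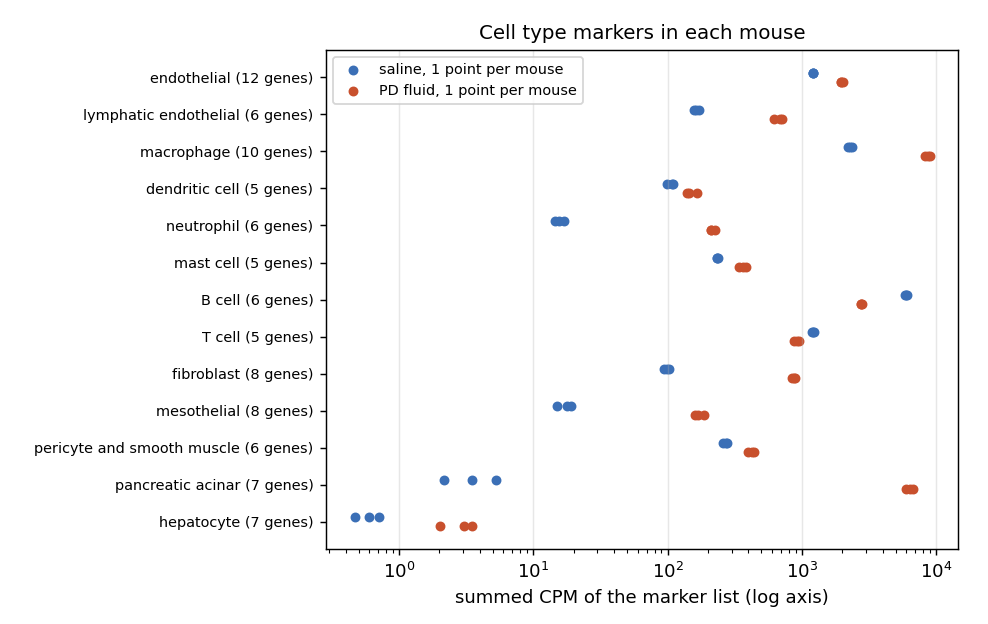
Summed CPM of each cell type marker list in every mouse (x axis, log scale), with a point per mouse. B cell and T cell lists are lower in PD mice, all others are higher, and the hepatocyte list stays at or below 3.49 CPM.

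Set against the macrophage markers, all 7 classical genes had a higher mean ratio in PD mice, C2 with overlapping groups, and of the inhibitors Serping1 alone did. Per 1000 CPM of macrophage markers, the 3 C1q chains together were at 264, 257 and 264 CPM in the saline mice and at 310.0, 313 and 312.5 CPM in the PD mice, a ratio of 1.19. The size of this difference depended on the marker: C1q per unit of Mrc1 overlapped between the groups, at 9.40 to 10.6 and 9.10 to 10.8, and so did C1q per unit of Fcgr1. Per unit of Marco it was 4.20 to 4.70 in saline mice and 16.4 to 17.7 in PD mice, and per unit of Timd4, a marker of resident peritoneal macrophages, 26.6 to 32.1 and 67.2 to 69.4. Relative to the macrophage list, Vsig4 was 3.77-fold higher in PD mice, C4b 3.19-fold, C3 2.66-fold, C1ra 1.97-fold, C5ar1 1.73-fold and Serping1 1.55-fold, each without overlap. Cfb and Cfp, at ratios of 0.657 and 0.70, and Cd55, at 0.128, were lower. For Cfb and Cfp this direction depended on the marker. Without Lyz2 in the list their ratios were 0.832 and 0.887. Per unit of Timd4 their ratios were 1.28 and 1.36, and per unit of Marco 2.11 and 2.24, without overlap. Cd55 stayed below 1 against each of the 10 markers, with ratios from 0.106 to 0.409. In all, 13 of the 29 genes had a ratio above 1 to macrophage markers, against 5.09% of all tested genes. For 12 of them the groups did not overlap (2.64% of all genes), and 16 were lower without overlap (87.5% of all genes). Lyz2 made up 71.4% of the macrophage sum in saline mice and 77.4% in PD mice. Without Lyz2, 13 complement genes had a ratio above 1 (7.81% of all genes), each without overlap (3.85%), and 13 were lower without overlap (83.4%). Ratios without Lyz2 and to single markers were added after seeing the data.

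As summed lists, fibroblast and mesothelial markers rose 8.78-fold and 9.96-fold, more than nearly all complement genes. Single markers differed. Pi16 (3.85-fold), Pdgfra (5.12-fold) and Krt18 (5.49-fold) rose less than C1ra (7.45-fold) and C5ar1 (6.52-fold). Col1a1 (14.5-fold) and Msln (15.3-fold) rose more than these complement genes. Dcn, the most abundant fibroblast marker, averaged 60.1 CPM without PD fluid and 549.9 CPM with it. Dependence of the ratios below on single markers was not tested. Against the fibroblast list, 3 of the 29 genes had a ratio above 1 (1.62% of all tested genes), and Vsig4, at 1.61, was the gene whose groups did not overlap (0.971% of all tested genes). C3 and C4b were at 1.15 and 1.40 with overlapping groups, and the other 26 were lower without overlap, as were 95.7% of all tested genes. The same 3 genes, Vsig4 at 1.41, C3 at 1.02 and C4b at 1.26, had a ratio above 1 to the mesothelial list, with Vsig4 again the one without overlap. The other 26 were again lower without overlap. Of all tested genes, 1.44% had a ratio above 1 to that list, 0.828% were higher without overlap and 96% lower without overlap. Against the endothelial list, 21 genes had a higher ratio in PD mice (22.7% of all tested genes), 19 of them without overlap (12.8%), and 6 were lower without overlap (64.7%). With Pecam1 left out of the list, 18 were higher (16.5%), 17 of them without overlap (8.77%), and 7 were lower without overlap (72%).

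The complement genes were also set against the B cell markers, which were lower in PD mice. The B cell sum in PD mice was 0.465 of that in saline mice, Cd55 0.481 and Cd46 0.4795. Falls of similar size give a ratio near 1 whatever their source. Ratios to the T cell markers, whose sum was 0.758 of that in saline mice, were not computed. Per 1000 CPM of B cell markers, Cd55 was at 99.8, 111 and 99.3 CPM in the saline mice and at 103, 106 and 112 CPM in the PD mice, with overlapping groups and a ratio of 1.03. Cd46 was at 0.665 and 0.684 CPM on average, also with overlap. Cr1l went from 25.9 to 51.1 CPM per 1000 CPM of B cell markers, a ratio of 1.97 without overlap. Of all tested genes, 98.5% had a higher ratio to B cell markers in PD mice, 93.7% were higher without overlap and 0.378% lower without overlap. Of the 29 complement genes, all 29 had a higher ratio, 26 of them without overlap. Which cells carried these transcripts was not measured.

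**Figure D5:**
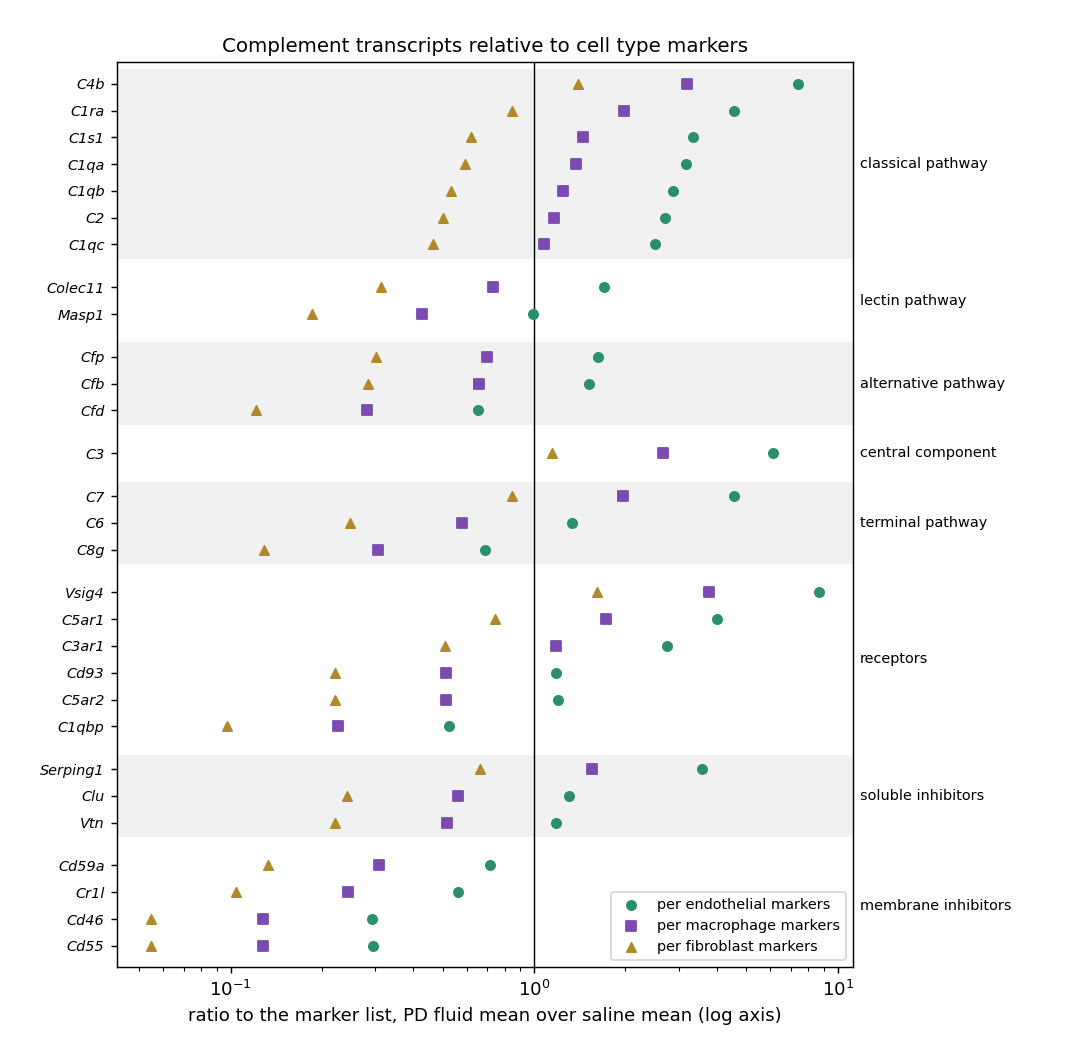
Ratio of PD to saline means for each complement gene after division by the summed endothelial, macrophage or fibroblast markers of the same mouse (x axis, log scale). Points right of the line at 1 had a higher mean ratio in PD mice: 21 genes against endothelial, 13 against macrophage and 3 against fibroblast markers. The shares over all tested genes were 22.7%, 5.09% and 1.62%, respectively. The groups did not overlap for 19, 12 and 1 of these genes, against 12.8%, 2.64% and 0.971% of all tested genes.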

How the data were processed

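RNA was sequenced from sorted peritoneal ECs, with 3 saline and 3 PD fluid libraries grouped by the sample labels. The authors deposited a raw read count and an FPKM value per gene and mouse. The submitters' processing notes list fastp 0.18.0, Bowtie2 2.2.8, HISAT2, StringTie and RSEM without their roles, and the genome build is not given in the sources used here. Group means, fold changes, p-values and FDR in the deposited table were not used. 0 columns of sample values were left unmatched. Positions come from GENCODE M21 (GRCm38), in which 22128 identifiers were found.

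Counts were filtered with filterByExpr, TMM-scaled and tested with edgeR 4.0.16 (R 4.3.3), by the quasi-likelihood test with Benjamini-Hochberg adjustment over 14005 genes and a threshold of 0.05. Standard errors were derived from the F statistic. The fit was tested on simulated counts in which a small set of genes changed, equally up and down. It was not tested on changes as many and as uneven as those seen here. Marker ratios and FPKM shares were computed with Python 3.11.15 and pandas 2.3.3 and are descriptions without a test. The genes and lists were chosen with earlier results of these data known. All 32 genes are reported, with values per mouse for those that passed the test with an absolute log2 fold change of at least 1 and a mean of at least 1 CPM in either group, and for C1q chains, C3, C4b, Serping1 and anaphylatoxin receptors. Other pathway genes are named if called at that fold, except 1 that is not reported here. Alternatives were other scalings (RLE, total counts, endothelial markers), no filter on low counts, DESeq2 1.42.0, limma-voom (limma 3.58.1), a replicate block and leaving out each mouse. Marker lists without Pecam1 or Lyz2, and ratios to single macrophage markers, were added after seeing the data. Replicates differed beyond sampling noise, and p-values set the group difference against the spread between mice of this experiment. That spread does not measure a difference in tissue collection between the groups, which cannot be told apart from PD fluid here. Duplicate molecules were not marked, so intervals of counting error were not computed.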

Additional observations from a re-analysis of the deposited data

How the results depend on the processing

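With DESeq2 size factors, total-count scaling, no low-count filter, DESeq2, limma-voom or the replicate block, all 29 complement calls were unchanged, with 22 higher and 3 lower. Scaling to endothelial markers gave 1670 higher and 8997 lower genes, 6 lower complement genes (Cfd, Cd59a and Cr1l added) and 3 lower other pathway genes. It turned C8g to -0.51, Cfd to -0.62, Masp1 to -0.014 and Cd59a to -0.48, and C5ar2 (0.25) and Vtn (0.26) no longer passed the threshold. Without Pecam1 in that list, a choice made after seeing the data, the test called 1149 genes higher and 10133 lower, with 15 higher and 6 lower complement genes and 5 higher and 3 lower other pathway genes. C5ar2 (-0.021), C8g (-0.79), Cfd (-0.89), Masp1 (-0.29), Cd59a (-0.76), Cd93 (-0.029) and Vtn (-0.022) then turned negative. Leaving out each mouse gave 22 to 23 higher and 2 to 3 lower complement genes, and 1 to 2 lower other pathway genes (2 without the second saline mouse). C8g ranged from -0.27 to 0.60, being negative without the third saline mouse (-0.09) or the first PD mouse (-0.27). Same-numbered mice did not deviate together (correlations 0.19, 0.07 and -0.27), but 3 mice per group cannot exclude a pairing by number. The block gave 4242 higher and 3667 lower genes. The reasons for these shifts were not tested. C8g had few counts, and Hc, Masp2 and Cfi too few to be tested.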
